A study of Mus musculus with 16 samples.

Results

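The 9 genes of the complement system followed here, C1qa, C1qb, C1qc, C2, C3, Cfb, Cfp, C3ar1 and C5ar1, encode C1q, complement factors and receptors. They were taken from the count table by their gene names and are 9 of its 54532 genes. RNA was sequenced from bronchoalveolar lavage cells, the cells washed out of the airways, of mice aged 8 to 10 weeks. The strain is written C56BL/6J in the sample labels and C57BL/6 in the design text. Each mouse had received saline or bleomycin by the oropharyngeal route, bleomycin at 4 U per kg of body weight, and cells were taken after 14 days. Bleomycin breaks DNA, and its delivery to the lung is a standard way to model pulmonary fibrosis. Both sexes received each treatment, which made 4 groups, with 4 libraries each and no genetic change or further agent named in any group. No source states that the 4 libraries came from separate animals, so the p-values measure the spread between these samples, which may be technical.

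Complement is a cascade of proteins that tags microbes, dying cells and debris for removal. C1q, a molecule built from A, B and C chains, binds such targets and starts the classical pathway; unlike most complement proteins, which the liver secretes, C1q is made largely by macrophages and other myeloid cells. The proteases encoded by C2 and Cfb form the enzymes (convertases) that cleave C3 in the classical and the alternative pathway, properdin (Cfp) stabilises the alternative one, and the fragments C3a and C5a act on myeloid cells through the receptors encoded by C3ar1 and C5ar1.

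The counts totalled 16385784 to 21393539 per saline library and 18871879 to 24567609 per bleomycin library. Levels of single genes are given as CPM, the counts scaled to a common library size with edgeR's composition scaling. All 9 genes passed the low-count filter, and 8 of them reached its level in all 8 saline libraries, so that these did not pass through the bleomycin groups alone. C2 reached it in 5 of the 8 saline libraries. The cells carried transcripts of several cell types. Of 16 markers of resident alveolar macrophages, the main cell of normal lavage, 11 fell and 3 rose under bleomycin in edgeR's test. The shares over all genes tested were 28.8% and 34.7%. The 16 markers of monocyte-derived macrophages summed to 1180 to 1667 CPM under saline and 14404 to 29614 under bleomycin. Ly6c2, which is among them, averaged 0.00605 CPM under saline. Interstitial macrophage markers summed to 4.94 to 9.32 CPM under saline and 86.9 to 144 under bleomycin. T cell markers summed to 3.23 to 9.84 and 262 to 795 CPM. B cell markers summed to 0.735 to 1.61 and 69.1 to 483, and NK cell markers to 0.620 to 1.89 and 23.7 to 58.5. Markers near 0 under saline, such as Ly6c2, can pass the filter through the bleomycin libraries alone, which sets a rise. Calls are therefore not counted for monocyte-derived and interstitial macrophages or for T, B and NK cells. RNA was measured in bulk, so fewer cells of a type and less RNA per cell cannot be told apart.

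The C1q genes lie side by side on the minus strand of chromosome 4 (GRCm38, from the deposited coordinates) within 18675 bases: C1qb at chr4:136880129-136886187, C1qc at chr4:136889804-136893065 and C1qa at chr4:136895917-136898803. C1qb and C1qc are 3616 bases apart and C1qc and C1qa 2851, and each is a protein-coding gene whose first listed transcript has 3 exons. RefSeq promoter sequences (GRCm38.p6) were matched for 6 of the 9 genes, C1qb, C1qc, C3, Cfp, C3ar1 and C5ar1. The bases before the start of C1qb (chr4:136886201-136886450), C1qc (chr4:136893066-136893164) and C3ar1 (chr6:122856162-122856407), all on the minus strand and printed 5′ to 3′ as transcribed, are shown because these genes rose most among the 6.
C1qb: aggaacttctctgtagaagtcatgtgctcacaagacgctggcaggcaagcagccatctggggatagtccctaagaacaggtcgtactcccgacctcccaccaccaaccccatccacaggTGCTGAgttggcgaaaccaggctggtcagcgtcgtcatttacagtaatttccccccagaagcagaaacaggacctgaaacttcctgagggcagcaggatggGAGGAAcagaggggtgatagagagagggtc
C1qc: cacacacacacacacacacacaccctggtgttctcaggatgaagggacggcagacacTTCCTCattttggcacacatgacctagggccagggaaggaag
C3ar1: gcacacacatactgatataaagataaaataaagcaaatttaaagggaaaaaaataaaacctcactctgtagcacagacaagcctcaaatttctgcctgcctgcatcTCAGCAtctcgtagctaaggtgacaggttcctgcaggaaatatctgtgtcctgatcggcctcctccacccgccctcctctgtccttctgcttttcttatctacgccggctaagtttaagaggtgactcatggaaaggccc
Capitals mark matches on either strand to TGCTGA, a half-site of the MAF family of transcription factors, and to GAGGAA, a core bound by PU.1, the myeloid factor encoded by Spi1. The reverse complements read TCAGCA and TTCCTC. No 2 of these matches overlap. In the 250 bases before the RefSeq start, the MAF half-site was matched in C1qb (first base at -131), C3ar1 (-144), C3 (-182) and C5ar1 (-17), which is 4 of the 6 genes and compares with 16.1% of 32851 promoters of that length. The PU.1 core was matched in C1qb (-30) and C1qc (-193), 2 of 6 against 23.3%. An interferon response element (GAAA and GAAA parted by 2 bases, 2.98% of promoters) and an interferon gamma activated site (TTCNNNGAA, 7.02%) matched none of the 6. An NF-kB site (GGG and TTTCC parted by 2 bases, 1.41%) matched C3ar1 alone. Both strands were searched for each motif, and the printed stretches of C1qc and C3ar1 end where the annotated gene begins.

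All C1q chain genes were at 1.19 to 4.16 CPM in saline lavage cells and at 211 to 871 CPM under bleomycin. In the order C33, C65, C66 and C67, C1qb, the B chain, stood at 516, 833, 871 and 645 CPM in bleomycin males. In bleomycin females (C49, C50, C68 and C69) it stood at 397, 595, 577 and 752 CPM. In saline males (C70 to C73) it was 2.01, 3.2, 3.33 and 3.29 CPM, and in saline females (C74 to C77) 1.89, 2.04, 1.52 and 2.1 CPM. Every bleomycin library was far above every saline library. The rise averaged over the sexes was 8.09 on the log2 scale (SE 0.18), a 272-fold change (adjusted p = 1.84e-16, edgeR's quasi-likelihood test). It was 7.91 (SE 0.25) in males and 8.26 (SE 0.26) in females. The average and the comparisons within each sex share their libraries and are not independent of each other.

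C1qa, the A chain, is given with the libraries in the same order, as are the genes after it. It stood at 372, 600.4, 579 and 471 CPM in bleomycin males and 297, 460.4, 422 and 599.9 CPM in females. Under saline it was 3.0, 3.43, 3.72 and 3.63 CPM in males and 1.33, 2.22, 2.21 and 2.27 CPM in females. Bleomycin and saline libraries were again apart, and within saline all 4 male values lay above all 4 female values. The averaged rise was 7.49 (SE 0.17), or 179-fold, with an adjusted p of 2.74e-16 in edgeR's test.

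C1qc, the C chain, stood at 300.4, 495, 534 and 347 CPM in bleomycin males and 211, 337, 327 and 456 CPM in bleomycin females. It was 1.19, 3.55, 3.23 and 4.16 CPM in saline males and 1.39, 2.48, 1.68 and 1.76 CPM in saline females, so that C70 was the lowest saline library for this chain although its sex was the higher on average. The averaged rise was 7.29 (SE 0.23), or 157-fold (adjusted p = 1.43e-14, edgeR's test). In every bleomycin library C1qb had the highest and C1qc the lowest CPM of the chains. Summed, the chains held 0.0929 to 0.179% of all counts under bleomycin, 18567 to 40010 counts per library, and 0.000485 to 0.00119% under saline, 83 to 229 counts per library.

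**Figure D1:**
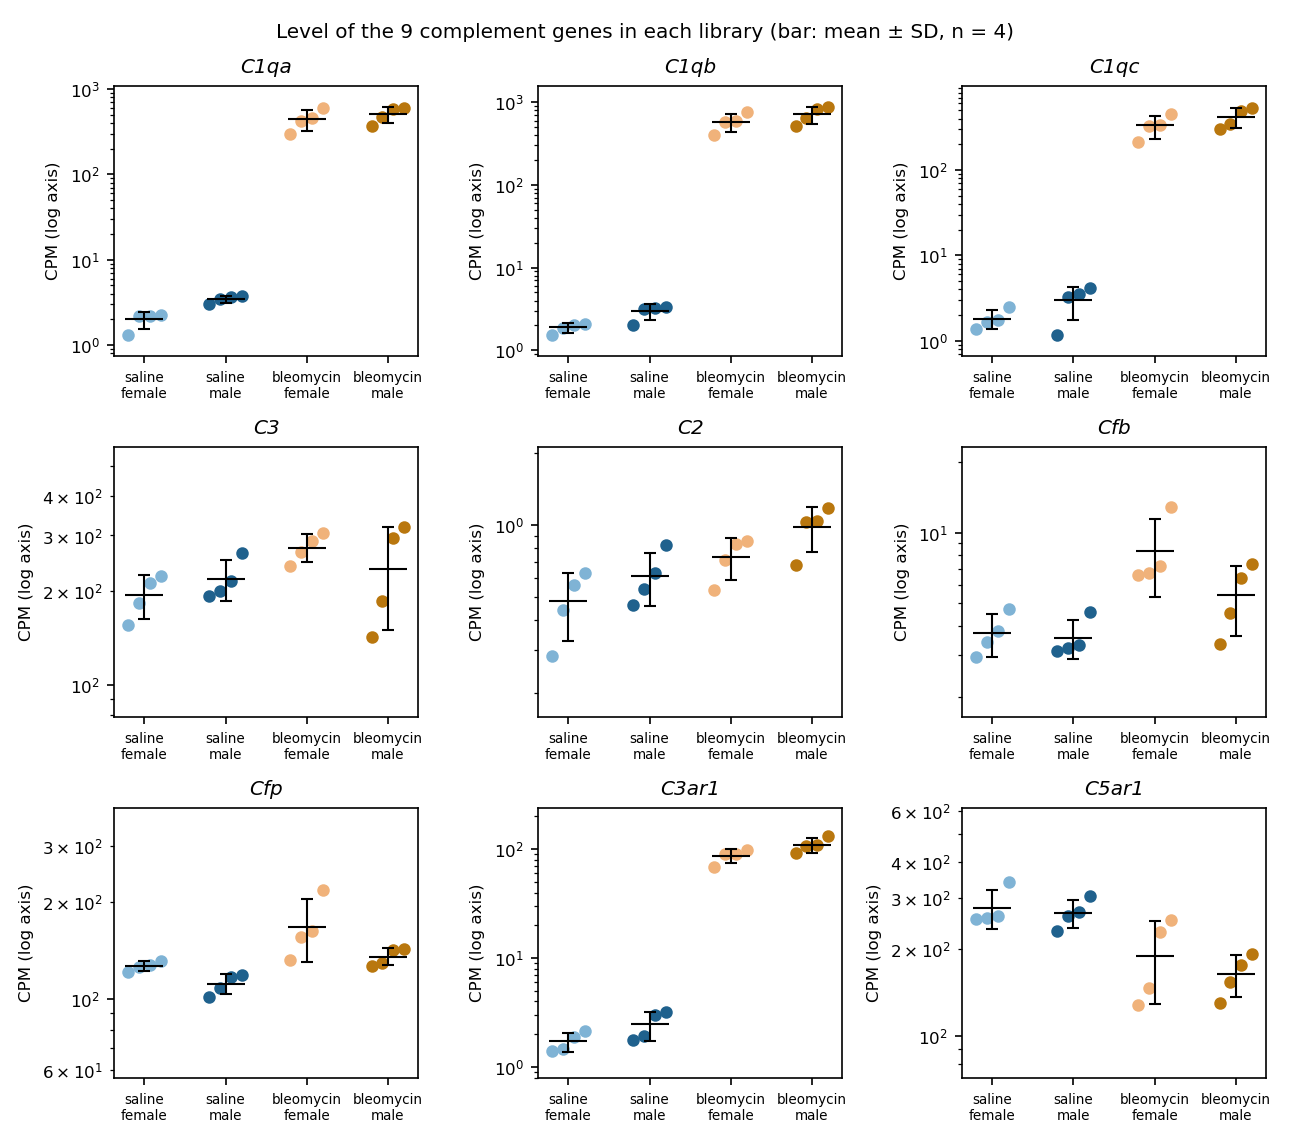
Level of each of the 9 genes (CPM, log axis) in every library of the 4 groups; points are libraries sorted by value within a group, and bars give the mean ± SD with n = 4. The C1q genes and C3ar1 are separated by treatment in both sexes, C5ar1 is lower under bleomycin within each sex, and C3, C2, Cfb and Cfp differ less between the treatments.

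Ratios between the chains, which need levels per length, ran over a narrower range under bleomycin than under saline. The C1qa to C1qb ratio of FPKM, the authors' counts scaled for gene length and library, ran from 0.695 to 0.835 over the 8 bleomycin libraries and from 0.738 to 1.556 over the 8 saline libraries. The C1qc to C1qb ratio ran from 0.300 to 0.345 and from 0.332 to 0.713. The means were 0.770 and 0.324 under bleomycin and 1.190 and 0.551 under saline. The saline ratios rest on few counts, and their wider spread under saline was not tested against counting error.

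Within a sex the chains deviated together from library to library under bleomycin. C49 was the lowest of the females, at 0.51 to 0.60 below the female mean of log2 CPM for the 3 chains, and C69 the highest, at 0.41 to 0.51 above it. C33 was the lowest male, at 0.42 to 0.44 below the male mean, and C65 and C66 were 0.22 to 0.39 above it. The summed CPM of the 16 monocyte-derived markers was also lowest in C49 among females (14404) and in C33 among males (20409), and highest in C69 (24135) and C66 (29614). Spp1, which is among these markers, averaged 13599 CPM over the bleomycin libraries and so carried much of this sum. The sum of the 16 resident alveolar markers was likewise lowest in C49 (12570) and highest in C69 (26152) among females, while among males it was lowest in C67 (12944) and highest in C66 (20944). Over the saline libraries the monocyte-derived sum was 1180 to 1667 and the resident sum 19757 to 29088, with Ly6c2 at 0 counts in all saline females. The 8 interstitial macrophage markers summed to 86.9 to 144 CPM under bleomycin, lowest in C49 and C33 and highest in C50 and C66 of each sex, and to 4.94 to 9.32 under saline, with none at 0 in a whole group. The part of these cell types in the C1q result was not tested.

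**Figure D2:**
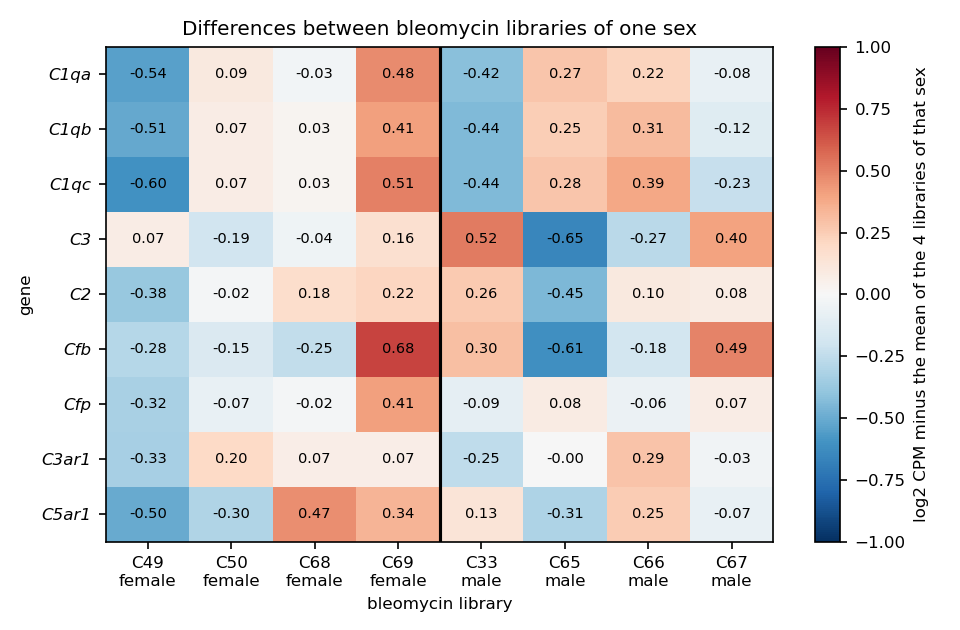
Difference of each gene (rows) in each bleomycin library (columns) from the mean of the 4 libraries of its sex, in log2 CPM, with red above and blue below. The C1q rows are lowest in C49 and C33 of the females and males, while C3 and Cfb have their lowest value in C65 (-0.65 and -0.61).

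The genes for the convertase components changed far less than C1q. C3, the protein at the centre of all complement pathways, was abundant under both treatments. Its levels were 223, 212, 182 and 155 CPM in saline females and 288, 239.6, 265 and 305 in bleomycin females. In males they were 214, 264, 192 and 199 under saline and 319.7, 142, 185 and 294 under bleomycin. The female groups did not overlap, whereas bleomycin males included both the lowest and the highest values of all libraries (C65 and C33). C3 rose in females by 0.51 on the log2 scale (SE 0.20, adjusted p = 0.0433), while in males the difference was 0.11 (SE 0.19, adjusted p = 0.639) and in the average 0.31 (SE 0.14, adjusted p = 0.0582), all by edgeR's test. The female call was lost without any 1 of the libraries compared other than C50 and C74 (adjusted p up to 0.130 without C77), with limma on either FPKM scale (adjusted p = 0.0626 and 0.0651), with the stricter filter (adjusted p = 0.0547) and with library totals alone (0.31, adjusted p = 0.206). The average was called without C65 (0.38, adjusted p = 0.00655), and also without C66, C71 or C74 (adjusted p up to 0.0472) and with no low-count filter (0.29, adjusted p = 0.0131). C3 (chr17:57203970-57228136, minus strand) spans 24167 bases with 41 exons.

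Cfb and C2 encode related proteases and lie 85 bases apart on the minus strand of chromosome 17, Cfb at chr17:34856374-34862518 and C2 at chr17:34862604-34898265, with 18 exons each. Cfb, the protease of the alternative pathway, stood at 2.94, 3.82, 4.73 and 3.4 CPM in saline females and 6.58, 7.23, 6.73 and 12.9 in bleomycin females. It was 3.31, 4.57, 3.23 and 3.15 in saline males and 6.41, 3.35, 4.56 and 7.33 in bleomycin males. The female groups were apart and the male groups overlapped, and C69 held the highest value of all. Cfb rose by 0.88 in the average (SE 0.19, 1.85-fold, adjusted p = 0.000434) and by 1.16 in females (SE 0.26, adjusted p = 0.00135). In males the difference of 0.61 (SE 0.26) had an adjusted p of 0.0563 in edgeR's test. The male difference was called by DESeq2 (adjusted p = 0.0475), and by edgeR with no low-count filter (adjusted p = 0.0395), without C65 (0.78, adjusted p = 0.0174) and without C71 (0.75, adjusted p = 0.0356).

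C2, the protease of the classical and lectin pathways, was near the limit of detection. Its counts over the 4 libraries of a group were 38 (females) and 48 (males) under saline, and 58 (females) and 84 (males) under bleomycin. The levels ran from 0.284 to 0.823 CPM under saline and from 0.536 to 1.18 CPM under bleomycin, so the treatments overlapped. C2 rose by 0.63 in the average (SE 0.24, adjusted p = 0.0293). Its differences of 0.68 (SE 0.33) in males and 0.59 (SE 0.35) in females were not called, with adjusted p of 0.0927 and 0.187 in edgeR's test, and the male difference was called by limma on log2(FPKM + 1) at 0.11 (adjusted p = 0.0459). The averaged call was lost without any 1 of C33, C66, C68, C69, C70, C72 and C77, with adjusted p up to 0.0648 (without C77), and with no low-count filter (adjusted p = 0.142). Zbtb12, on the opposite strand, overlaps C2 and held 1799 counts over the 16 libraries against 228 for C2, and because no source says whether the counting used strand, reads of the overlap cannot be told apart.

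Cfp encodes properdin and lies on the X chromosome (chrX:20925454-20931555, minus strand, 9 exons). It stood at 126, 128, 122 and 132 CPM in saline females and 132, 156, 163 and 219 in bleomycin females. In males it was 119, 102, 117 and 108 under saline and 127, 143, 129.5 and 142 under bleomycin. The male groups were apart, and in females the lowest bleomycin value (C49) was just above the highest saline value. Cfp rose by 0.34 in the average (SE 0.079, adjusted p = 0.00102), by 0.28 in males (SE 0.11, adjusted p = 0.0390) and by 0.40 in females (SE 0.11, adjusted p = 0.00655), all by edgeR's test. The male call was lost without any 1 of the libraries compared other than C33 and C70 (adjusted p up to 0.108, without C71). C69 carried much of the female rise: without it the difference was 0.22 (adjusted p = 0.0452).

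These small rises depend on the scale. With library totals alone the median of all genes moved from 0.0116 to -0.20 in the averaged comparison, and Cfp then had a difference of 0.12 (adjusted p = 0.0947; 0.05 and 0.638 in males, 0.19 and 0.0794 in females), C2 of 0.42 (adjusted p = 0.122) and C3 of 0.10 (adjusted p = 0.527) in edgeR's test. In males C3 turned from 0.11 to -0.11 on that scale, neither value being called. Cfb kept its averaged call at 0.67 (adjusted p = 0.00355).

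The receptors went in opposite directions. C3ar1, the receptor for C3a (chr6:122847138-122856161, minus strand, 2 exons), stood at 1.89, 2.13, 1.42 and 1.48 CPM in saline females and 1.76, 3.2, 1.91 and 3.0 in saline males. It was 68.5, 98.9, 90.4 and 90.3 in bleomycin females and 91.4, 109, 133 and 106 in bleomycin males. All bleomycin values were far above all saline values, and the bleomycin libraries differed less among themselves than they did for C1q. C3ar1 rose by 5.56 in the average (SE 0.13, 47.1-fold, adjusted p = 4.23e-16), 5.48 in males (SE 0.19) and 5.64 in females (SE 0.19) in edgeR's test.

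C5ar1, the receptor for C5a (chr7:16246743-16259540, minus strand, 3 exons), was 343, 261, 254 and 255 CPM in saline females and 128, 147, 251 and 229.6 in bleomycin females. In males it was 269, 305, 261 and 231 under saline and 177, 130.4, 192 and 153 under bleomycin. Within each sex the bleomycin values lay below the saline values, by a narrow margin in females, where C68 came close to the saline libraries. C5ar1 fell by 0.63 on the log2 scale in the average (SE 0.13, adjusted p = 0.000317), by 0.71 in males (SE 0.18, adjusted p = 0.00306) and by 0.56 in females (SE 0.18, adjusted p = 0.0177), by edgeR's test. The female call was lost without C50 (-0.48, adjusted p = 0.0502) or without C74 (-0.44, adjusted p = 0.0728). The ratio of C3ar1 to C5ar1 in FPKM was 0.00329 to 0.00775 over the saline libraries and 0.215 to 0.497 over the bleomycin libraries. Neutrophils also carry C5ar1, and their 13 markers summed to 84.1 to 127 CPM under saline and 195 to 242 under bleomycin. Of the 13 markers, 8 passed the low-count filter. A marker could pass it through the bleomycin libraries alone, so calls are not counted for neutrophils. The neutrophil marker Ly6g had 0 counts in both saline groups and in bleomycin females, and Mpo in all groups but saline females. The part of neutrophils in the receptor results was not tested.

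Of the 9 genes, 7 rose and 1 fell in the average, against 34.7% of all 15257 tested genes that rose and 28.8% that fell. In males 5 rose and 1 fell, against 31.5% and 24.9%. In females 7 rose and 1 fell, against 26.7% and 17.2%. The genes' median log2 change was 0.88 in the average, 0.68 in males and 1.16 in females, with 0.0116, 0.020 and 0.018 over all genes tested.

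**Figure D3:**
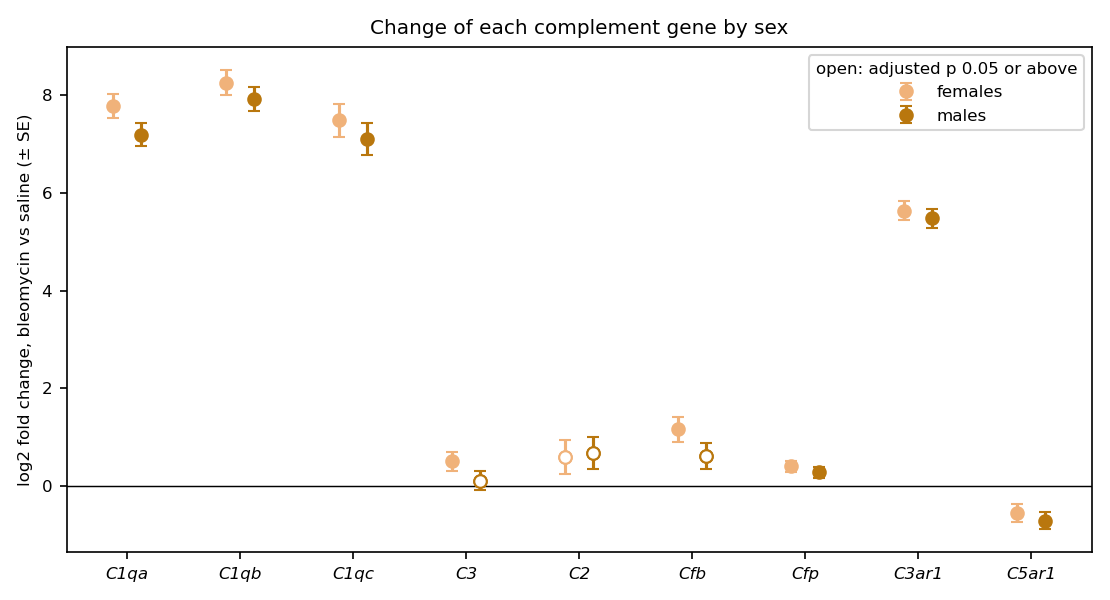
Log2 fold change of each gene under bleomycin (points, ± SE from edgeR's fit) in females and males, with open points where the adjusted p was 0.05 or above. The C1q genes lie between 7.11 and 8.26, C3ar1 at 5.48 and 5.64, C3, C2, Cfb and Cfp between 0.11 and 1.16, and C5ar1 below 0.

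Compared per length, the order of the genes changed with treatment. In saline females C5ar1 was highest at 108 ± 16.9 FPKM, followed by Cfp at 72.6 ± 2.46 and C3 at 37.4 ± 5.95 (mean ± SD, n = 4). The other genes were under 2 FPKM on average there: C1qa, C1qb and Cfb were neighbours at 1.92 ± 0.428, 1.73 ± 0.238 and 1.31 ± 0.265 FPKM, which is within about their spread. C2 was lowest at 0.124 ± 0.039 FPKM. In bleomycin males C1qb led at 651 ± 149 FPKM, rank 51 of 12620 protein-coding genes tested, against rank 8085 in saline males. C1qa followed at 481 ± 98.9 and C1qc at 215 ± 57.1, where C1qa and C1qb lay within their spread over libraries although C1qa was below C1qb in each of the 8 bleomycin libraries. Cfp (77.2 ± 4.86) and C5ar1 (62.9 ± 10.5) came next, then C3 at 45.3 ± 16.6 FPKM and C3ar1 at 25.2 ± 3.88, and the wide spread of C3 reached that of both C5ar1 and C3ar1.

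**Figure D4:**
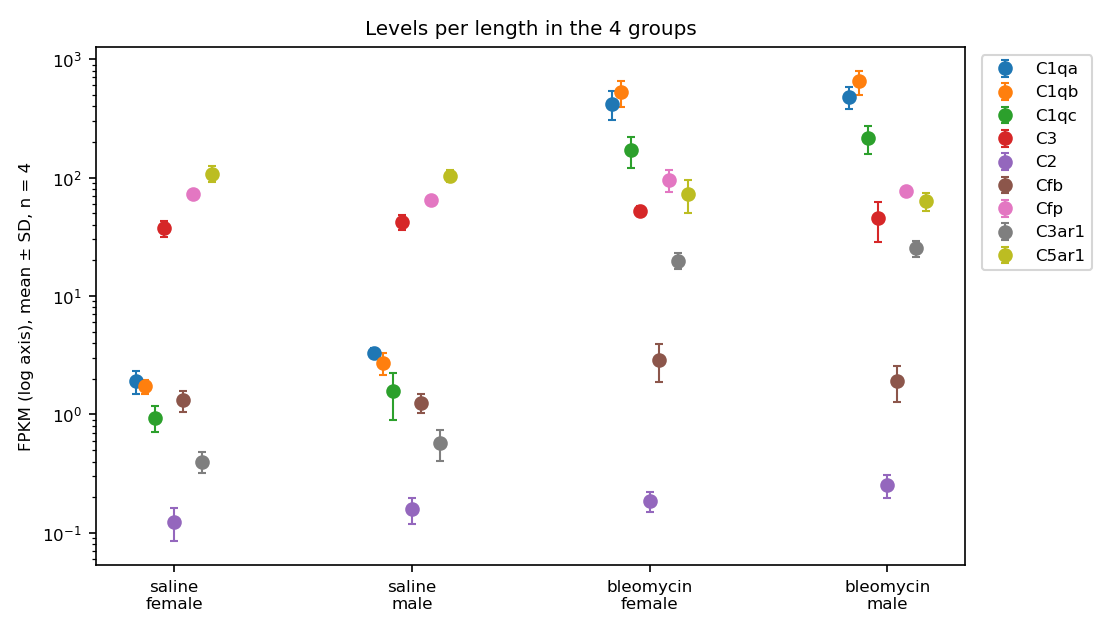
Mean level of the 9 genes in FPKM (log axis, bars ± SD, n = 4) in the 4 groups, one colour per gene. C5ar1, Cfp and C3 lead under saline, and the C1q chains lead under bleomycin, while C2 is lowest in every group.

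Between the sexes edgeR called few genes. Under saline none of the 9 genes was called between males and females in edgeR's test, nor by DESeq2 or limma voom, where edgeR called 0.269% of all genes. Of the 9, 3 had an unadjusted p under 0.05 (C1qa, C1qb and C3ar1), as had 9.56% of all genes. C1qa was higher in males by 0.77 (SE 0.27, adjusted p = 0.336), with no overlap of the groups, as were 6.85% of all genes tested. Cfp had a difference of -0.19 (SE 0.11, adjusted p = 0.596), with every male value below every female value, as in 6.3% of all genes. The differences of C1qb (0.65), C1qc (0.71) and C3ar1 (0.49) had adjusted p of 0.468, 0.550 and 0.519. Fitted on the 8 saline libraries alone, C1qa was called at 0.76 (adjusted p = 0.0439). In the authors' deposited table for saline males against saline females, C1qa is listed at 0.76 with an adjusted p of 0.0196 and Cfp at -0.20 with 0.0410. The same authors' deposited table lists C1qb with an adjusted p of 0.0885 and C1qc with 0.165.

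Under bleomycin no gene of the 9 was called between the sexes by edgeR, DESeq2 or limma voom, where edgeR called 0.059% of all genes, and each adjusted p was 0.995. Unadjusted p were under 0.05 for Cfp (-0.30, SE 0.11), Cfb (-0.61, SE 0.25) and C3ar1 (0.33, SE 0.14), 3 of the 9, as for 3.97% of all genes. None of the 9 was without overlap, against 0.741% of all genes that were higher in males and 0.551% that were lower. For the interaction, the difference between the male and the female response to bleomycin, none was called by any of these tools, where edgeR called 0.00655% of all genes. At an unadjusted p under 0.05 there were 0 of the 9, against 7.88% of all genes. C1qa had the smallest p of the 9, with a response that differed by -0.59 (SE 0.32, unadjusted p = 0.0799, adjusted p = 0.645, edgeR). The call of C3 and Cfb in females and not in males is therefore no tested difference, at -0.39 (SE 0.28) and -0.55 (SE 0.37) with adjusted p of 0.684 and 0.672.

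The rest of the pathway was taken from 51 other complement genes, of which 23 passed the low-count filter. The 28 that did not held at most 65 counts over the 16 libraries, and 6 of them had none. Of the 23 tested, 5 (Fcna, Hc, Cd55, Cd59a and Cr2) reached the filter's level through the bleomycin libraries alone, so that a rise was set by the filter and only their levels are given. Among the other 18, 9 rose and 4 fell in the average, against 34.7% and 28.8% of all genes tested. In males 9 rose and 4 fell, against 31.5% and 24.9%, and in females 8 rose and 1 fell, against 26.7% and 17.2%. The alternative settings were compared only for the 9 genes, so small changes of these other genes were not checked with library totals alone.

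C4b, which encodes the classical component C4, rose by 4.95 (SE 0.29), from 1.40 ± 0.22 CPM in saline males and 4.13 ± 0.93 in saline females to 58.2 ± 11.6 and 95.8 ± 62.2 under bleomycin (mean ± SD, n = 4). C1ra, a protease that C1q engages, rose by 0.37 (SE 0.091), and C4a (-0.23, SE 0.33) was not called. C4a and C4b, like C1ra and C1rb, are near-identical copies whose reads may be split. In the lectin list, Colec12, a collectin receptor, rose by 1.65 (SE 0.16). Fcna, which encodes ficolin A, ran from 0.0980 to 0.774 CPM under saline and from 7.65 to 17.2 CPM under bleomycin. Mbl2 had 0 counts in every group.

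Clu, clusterin, a soluble inhibitor of the terminal complex, rose by 5.50 (SE 0.21). The membrane inhibitor Cd55 held 19 counts over the 8 saline libraries and was at 3.495 to 19.2 CPM under bleomycin, and Cd59a ran from 0.147 to 0.840 and from 1.003 to 1.96 CPM. Cr1l (0.05, SE 0.048) and Cd46 (-0.19, SE 0.33) were not called. Of the terminal genes, Hc, which encodes C5, was at 0 to 0.568 CPM under saline and 0.491 to 1.92 under bleomycin. C8g fell by 0.39 (SE 0.14) in the average and was not called in females (-0.30, SE 0.20, adjusted p = 0.243, edgeR's test). C8b and C9 had 0 counts in all groups.

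Of the 10 other receptors, Itgam, Itgb2, Cd93 and C1qbp were called higher and C5ar2, Lrp1 and Itgax lower in the average, against 34.7% and 28.8% of all genes. Cr2 is left out of these calls because it passed the filter through the bleomycin libraries alone. Itgam, the alpha chain of complement receptor 3, rose by 4.85 (SE 0.23), whereas Itgax, the alpha chain of complement receptor 4, fell by 0.17 (SE 0.060), and their shared beta chain gene Itgb2 rose by 0.69 (SE 0.068). Cr2, a receptor of B cells, held 11 counts over the saline libraries and was at 1.60 to 10.6 CPM under bleomycin, and the 10 B cell markers summed to 69.1 to 483 CPM under bleomycin and 0.735 to 1.61 under saline. C5ar2, the alternative C5a receptor, fell by 0.58 (SE 0.092), close to its neighbour C5ar1. Lrp1, a scavenger receptor, fell by 0.53 (SE 0.10), Cd93 rose by 1.96 (SE 0.12), and C1qbp, a C1q-binding protein, by 0.24 (SE 0.075). C1qbp, Itgax and Lrp1 were called in males but not in females. Their female differences were 0.01 (SE 0.11), -0.07 (SE 0.084) and -0.33 (SE 0.14), with adjusted p of 0.965, 0.558 and 0.0696 in edgeR's test. The male difference of C1qbp was 0.46 (SE 0.11). The interaction with sex was called for none of them. Vsig4, the macrophage receptor for C3 fragments, was at most 0.588 CPM in any library and was not called (-0.52, SE 0.40), nor was Calr (-0.04, SE 0.075).

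**Figure D5:**
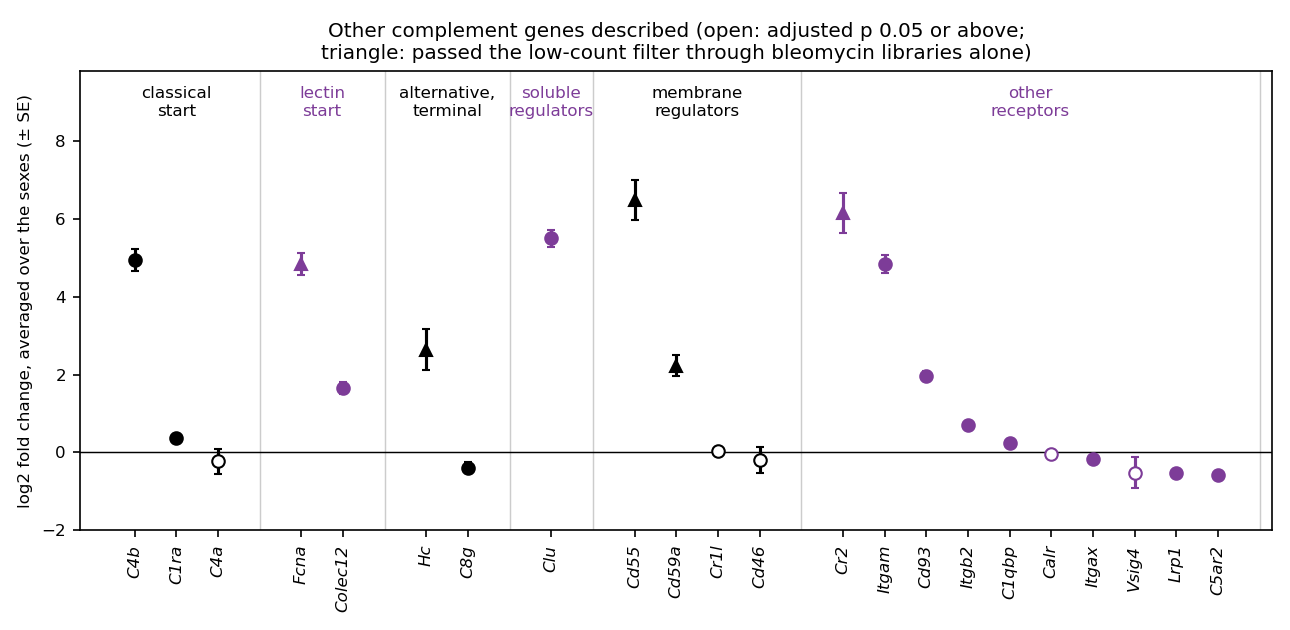
Log2 fold change averaged over the sexes (points, ± SE) of other complement genes tested, grouped by role, with open points where the adjusted p was 0.05 or above and triangles for the 5 genes that passed the filter through the bleomycin libraries alone. Of the others shown, the called genes Clu, C4b and Itgam lie above 4, and the called genes C5ar2, Lrp1, C8g and Itgax lie below 0.

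Among transcription factors known to act at C1q or in myeloid cells, Maf rose by 4.64 (SE 0.20) in edgeR's test, from 1.17 ± 0.41 CPM in saline males and 0.733 ± 0.28 in saline females to 25.4 ± 6.1 and 21.8 ± 5.8 (mean ± SD, n = 4). Irf8 rose by 0.57 (SE 0.067). Spi1, which encodes PU.1, was at 488 ± 21.6 CPM in saline males and 475 ± 23.2 in bleomycin males and was not called (-0.10, SE 0.079). Maf is also among the monocyte-derived markers, and whether it bears on the C1q genes was not tested.

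The nearest neighbours of the C1q cluster, Ephb2 and Epha8, were below the filter with 39 and 4 counts over the 16 libraries. Around C3ar1, Foxj2 fell by 0.48 (SE 0.041) and Necap1 rose by 0.38 (SE 0.058). Next to C3, Tnfsf14, a cytokine of the TNF family, rose by 2.53 (SE 0.26), and Gpr108 was not called (0.05, SE 0.047). Beside Cfp, Syn1 fell by 1.0 (SE 0.12) and Elk1 by 0.48 (SE 0.078), opposite to Cfp. Beside Cfb and C2, Nelfe was not called (0.12, SE 0.071) and Ehmt2 fell by 0.24 (SE 0.048). Beside C5ar1, C5ar2 lies 2589 bases away, and Inafm1, on the other side, fell by 0.49 (SE 0.075).

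Profiles over the 16 libraries were compared by the root mean square difference of centred log2 CPM (prior count 2) among 12619 protein-coding genes. The prior count, added before taking logs, narrows differences between levels near 0. The gene most like C1qa was C1qc (0.33), followed by C1qb (0.37) and Ldhb, a lactate dehydrogenase subunit (0.39). C1qb was nearest to C1qa, then Ly6c2, a monocyte surface marker (0.39), and C1qc to C1qa, then F13a1, coagulation factor XIII (0.36). Ly6c2 averaged 0.00605 CPM under saline, with a fitted change of 11.3 (SE 0.40), against 2.42 CPM and 8.09 for C1qb. Ldhb and F13a1 averaged 0.191 and 0.214 CPM under saline. C3ar1 was nearest to Sash1 (0.22), and Spp1, osteopontin, was also close (0.29). Genes that moved little must have neighbours of like small change by this measure, because it includes the treatment difference. C3 was nearest to Csf2rb2 (0.20), Cfp to Ufc1 (0.11), Cfb to Ripk3 (0.32), C2 to Arhgap6 (0.24) and C5ar1 to Zfp703 (0.15).

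C3 and Cfb can also be made by epithelial cells and hepatocytes. The 12 epithelial markers summed to 743 to 884 CPM under saline and 265 to 503 under bleomycin. The sum does not stand for each marker, because Epcam and Krt19 fell while most of the others were called higher. A marker low under saline can pass the low-count filter through the bleomycin libraries alone, which sets a rise. The rises are therefore not counted. None of the 12 epithelial markers was at 0 in a whole group. Of the 5 hepatocyte markers none passed the filter, their summed level was at most 0.828 CPM in any library, and Ttr and Serpina1a had 0 counts in every group. In bleomycin males (C33, C65, C66 and C67) the red blood cell genes summed to 67.3, 6018, 1183 and 858 CPM and the T cell markers to 304, 795, 576 and 662 CPM. Among these males C3 and Cfb were lowest in C65, and C3 was highest in C33 and Cfb in C67. In bleomycin females (C49, C50, C68 and C69) the red blood cell sums were 1037, 888, 176 and 840 CPM. Their T cell sums were 650, 583, 262 and 290 CPM. Among these females C3 was lowest in C50 and Cfb in C49, and both were highest in C69. The part of these cells in the C3 and Cfb values was not tested.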

How the data were processed

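Lavage cells of 16 libraries (4 groups of 4) were analysed. The authors' gene counts are deposited raw, and the authors' FPKM values are those counts divided by gene length and a constant per library whose definition is not stated (largest relative spread 6.189e-14). The deposited log2 fold changes and p-values come from the authors' own comparison tables. Per the submitters' processing notes, the tools were featureCounts 1.5.0-p3, HISAT2 2.0.5, fastp 0.12.2 and DESeq2, and the builds mm9 and mm10 are named without a role. Of 54532 gene identifiers, 54409 are in GENCODE M21 (GRCm38), 53499 of all (98.33%) with the same coordinates. Whether counting used strand is not given in the sources used here.

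Genes were kept with filterByExpr (minimum count 10), which left 15257, and scaled by TMM (factors 0.864 to 1.098). One edgeR 4.0.16 quasi-likelihood fit under R 4.3.3 with a coefficient per group gave 6 comparisons, with Benjamini-Hochberg adjustment over all genes tested and calls at an adjusted p below 0.05. The SE is the log2 change divided by the square root of F. List sums are CPM of the listed markers. The script was tested on simulated data. Alternatives were library totals alone, DESeq2 1.42.0, limma 3.58.1 voom, limma on log2(FPKM + 1) and log2(FPKM + 0.1), no or a stricter filter (1 CPM), only the groups compared, and each library left out. Named were all 9 genes, listed complement genes that passed the filter, 3 nearest profiles and flanking genes. The members and lists were chosen with earlier results of these data known. Promoters are 250 bases before RefSeq starts, and bases past the annotated gene start are not printed. Some listed genes are not reported here.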

Additional observations from a re-analysis of the deposited data

Results flagged for a closer look

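In each gene and group the highest and lowest library were compared with the other 3 by Dixon's gap over range at the 95% level. Chance flags about 1 in 20 groups, and 5 of 36 stood apart. C74, a saline female, was lowest for C1qa at 1.33 CPM (gap over range 0.932) and highest for C5ar1 at 343 CPM (0.923). C70, a saline male, was lowest for C1qb at 2.01 CPM (0.903). C71, a saline male, was highest for Cfb at 4.57 CPM (0.888), and C69, a bleomycin female, was highest for Cfb at 12.9 CPM (0.897).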

How the results depend on the processing

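Across the genes, comparisons and alternative settings, 929 of 983 results kept their direction and their side of the threshold, 13 changed sign without being called in either setting, 30 lost a call, 11 gained one and 0 called results reversed. The bleomycin calls of C1qa, C1qb, C1qc and C3ar1, those of Cfb in the average and in females, and those of C5ar1 in the average and in males held in every alternative that gave a value. The number of the 9 genes that fell in females ran from 0 to 1 when 1 library was left out, and C1qa made 1 gene that rose in saline males against saline females when only those groups were fitted. The number that rose with library totals alone was 5 in the average, 4 in males and 5 in females. Over all genes, that scale gave 3720 rises and 7004 falls in the average, against 5300 and 4400. Genes called between saline sexes numbered 41, against 191 in DESeq2, 119 with no filter, 764 with only those groups, and 20 at the fewest with 1 library left out. Between bleomycin sexes 9 became 14 with no filter, and for the interaction 1 became 23 in DESeq2 and 15 with no filter. The cause was not tested. The stricter filter gave no value for C2, whose counts limit its precision. No paired analysis was possible because the labels give every library a code of its own that no other group shares, and the replicate numbers 1 to 4 only follow the order of the samples.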
